A study of Mus musculus with 4 samples.

Results

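L2 elements are LINE repeats, and the members described here are the loci whose family field in the repeat tables reads L2. The tables listed 14444 L2 loci among 145916 LINE loci with at least 1 count in any library, and 35616 of 359255 LINE loci when the tables of their flanking intervals were included. RNA-seq libraries had been made from tail-tip fibroblasts of adult C57BL/6J mice, labelled WT or Lsh-/-, and from whole C57BL/6J embryos at E13.5, again WT or Lsh-/-, with 1 library in each of the 4 groups. Lsh, encoded by Hells, is a chromatin remodelling protein needed for normal DNA methylation of repeats. The fibroblasts of both genotypes carried SV40 transformation, and the number of animals or cultures behind a library is not given in the sources used here. The methods describe tissue of heterozygous and homozygous Lsh embryos, whereas the labels call the control embryos WT, and the labels' name is used here. With 1 library per group, no difference between genotypes has a replicate check, no p-value was computed, and intervals given for counts cover counting error only.

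L2 is an ancient family of non-LTR retrotransposons whose copies in the mouse genome are short, diverged fragments that no longer transpose. L1 is the younger LINE family and includes the L1Md subfamilies, some of whose copies still move in the mouse. IAPs, the LTR retrotransposons at the centre of the study, are normally silenced by DNA methylation. L2 fragments lie in introns, untranslated regions and intergenic DNA, so reads on such a fragment can belong to a longer host transcript.

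Each value is a raw count of uniquely mapped reads on a locus. For a locus, the log2 fold change compares its scaled count in the Lsh-/- library with that in the WT library of the same tissue. A default prior count of edgeR, below 1 here, was added to each. The log2 fold change was computed where both libraries together held 10 or more counts. Limits of 1 (2-fold) and 5, the latter being the line drawn in the study, were set on this scale. The LINE tables held 456109 to 855043 counts per library. No L2 locus lay inside Hells, so the deletion could not be checked on these members. Summed over L2 loci in genes of the fixed fibroblast matrix list, the level was 5.58 and 2.51 CPM (counts scaled by the effective library size) in WT and Lsh-/- fibroblasts and 12.3 and 13.3 in WT and Lsh-/- embryos. These repeat counts therefore did not separate fibroblasts by their defining genes, only 14 of which, of 38, held a listed L2 locus.

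The L2 sequences below, read from mm9 on the strand of the element, belong to the 3 loci past 5 in either tissue with the largest counts (UTR loci aside) and to the Meg3 locus, which held the largest count of any L2 locus. CpG sites, the target of DNA methylation, are in capitals. The L2b locus at chr9:98679099-98679400, of which the first 300 of 302 bases are shown, lay outside genes and had 2 CpG sites:
L2b chromosome 9: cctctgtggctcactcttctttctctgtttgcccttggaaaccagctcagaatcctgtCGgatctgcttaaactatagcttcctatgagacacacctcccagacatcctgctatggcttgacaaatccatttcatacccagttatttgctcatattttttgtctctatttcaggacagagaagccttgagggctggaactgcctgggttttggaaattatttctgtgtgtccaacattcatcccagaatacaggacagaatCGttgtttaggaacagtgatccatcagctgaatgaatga
The L2 locus at chr5:128230837-128230941 lay outside genes and had 2 CpG sites:
L2 chromosome 5: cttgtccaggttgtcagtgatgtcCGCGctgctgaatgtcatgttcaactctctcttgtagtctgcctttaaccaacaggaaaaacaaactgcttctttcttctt
The L2a locus at chrX:25841797-25841923 lay outside genes and had no CpG site:
L2a chromosome X: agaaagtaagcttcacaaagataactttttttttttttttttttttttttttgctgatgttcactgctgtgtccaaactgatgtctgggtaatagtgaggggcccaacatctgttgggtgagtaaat
The L2c locus at chr12:110783854-110783944, within a non-coding exon of Meg3 but on the strand opposite to the gene, had no CpG site:
L2c Meg3: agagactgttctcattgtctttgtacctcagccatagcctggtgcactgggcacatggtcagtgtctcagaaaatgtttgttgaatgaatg

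Of the 14444 listed L2 loci, 5233 were L2a, 3846 were named L2 without a letter, 2890 were L2b and 2475 were L2c. They were 52 to 2016 bp wide with a median of 131 bp. By the GENCODE annotation on mm9, 10983 (76.0%) lay in introns, 829 (5.74%) overlapped an exon and 2624 (18.2%) lay outside genes, while 8 were on chromosomes absent from the reference. Of the L2 loci inside genes, 60.0% were annotated on the strand opposite to the gene. At the level of sequence, 36.9% of L2 loci had no CpG site and the median was 0.66 CpG per 100 bp, against 0.81 for L1Md loci and 0.46 for other L1 loci. Only 0.134% of the 31-base words of L2 loci recurred in another listed L2 locus, against 82.4% for L1Md loci.

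L2 loci took 12.6% of LINE counts in the WT fibroblast library (95% Wilson interval 12.5 to 12.7) and 13.7% in the Lsh-/- fibroblast library (13.6 to 13.8). In embryos the shares were 15.7% for WT (15.6 to 15.8) and 15.4% for Lsh-/- (15.3 to 15.5). The summed L2 level, with the 4 libraries scaled together, was 3393 CPM in WT and 3399 in Lsh-/- fibroblasts, and 4511 and 4353 in WT and Lsh-/- embryos. The near equality in fibroblasts depends on this scaling. Unscaled, L2 loci held 60185 of the 29787223 counts in all 6 tables for WT and 62262 of 19216257 for Lsh-/- fibroblasts. Counts were concentrated: the 10 largest loci took 17.5% to 21.9% of the L2 counts of a library, while the median listed locus had 2 to 4 counts. Although exonic loci were 5.74% of those listed, they held 46.6% to 52.5% of the counts, and loci outside genes held 5.46% to 8.63%.

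In fibroblasts the typical L2 locus differed little between genotypes, and few of the tested loci had counts in the Lsh-/- library alone. Of 9900 L2 loci listed in the pair, 1782 had 10 or more counts, and their median log2 fold change was 0.06 (95% interval over loci −0.05 to 0.10), beside 0.09 for all LINE loci tested. Above 1 were 314 L2 loci (17.6%), beside 24.1% of all LINE loci, and below −1 were 283 (15.9%), beside 18.2%. Above 5 were 25 L2 loci (1.4%), beside 8.74% of all LINE loci, and below −5 were 14 (0.79%), beside 1.04%. The L1Md loci, tested in the same table, had a median of 0.70 and 27.7% of them above 5. Of CR1 and RTE, further LINE families, 10 of 302 loci (3.31%) and 2 of 103 (1.94%) were above 5. Their medians were 0.09 and −0.05, so a low share above 5 was not particular to L2. The split of L2 loci past 1 depended on the library size used: 52.6% of them were on the upper side here and 82.9% when the total of all 6 tables was the library size, which moved the median of all LINE loci to 0.76 and that of L2 loci to 0.73. Relative to all LINE loci the L2 median was lower by 0.03 under both.

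In embryos the 2 genotypes were as close. Of 11167 listed L2 loci, 3148 had 10 or more counts, with a median log2 fold change of −0.04 (interval −0.08 to 0.01), beside 0.04 for all LINE loci. Above 1 were 567 (18%), beside 21.3% of all LINE loci, and below −1 were 609 (19.3%), beside 20.7%. Above 5 were 54 (1.72%), beside 3.09% of all LINE loci, and below −5 were 85 (2.70%), beside 2.89%. Of CR1 and RTE loci, 11 of 491 (2.24%) and 2 of 164 (1.22%) were above 5.

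**Figure D1:**
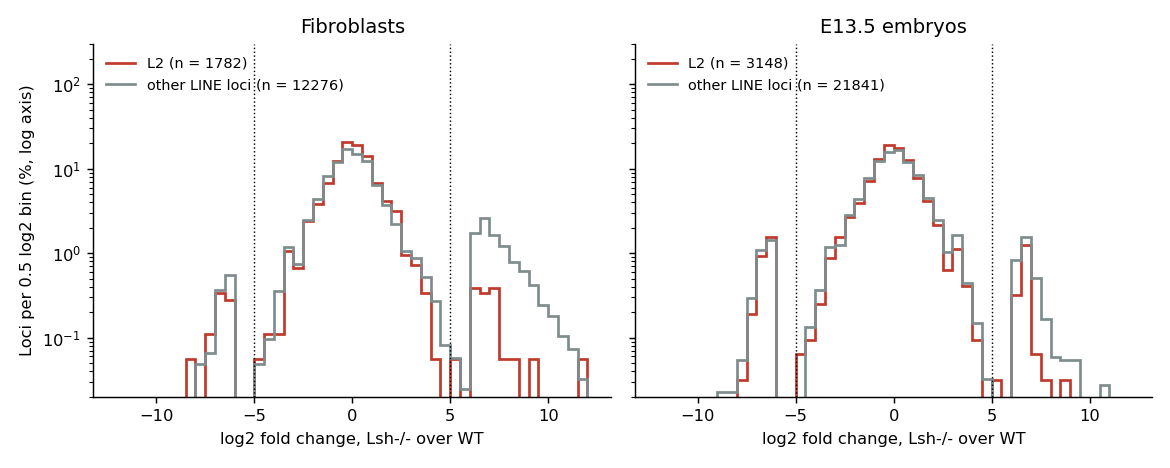
Share of tested loci in each bin of 0.5 on the log2 scale (vertical log axis) against the log2 fold change of Lsh-/- over WT, for L2 loci and other LINE loci in fibroblasts and embryos. The dotted lines mark −5 and 5. In fibroblasts 1.4% of L2 loci and 9.80% of other LINE loci lie above 5.

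Most L2 loci past a limit had few reads. With 10 to 20 counts in the fibroblast pair, 21.6% of 914 L2 loci were above 1 and 22.9% below −1, and with over 500 counts 1 of 24 was above 1, that of Cdkn1a, and 0 were below −1. In embryos the shares were 27.0% and 27.9% of 1435 loci with 10 to 20 counts, and 0 and 1 of 64 loci with over 500, the latter that of Trib3. Of the loci above 5, 24 of 25 in fibroblasts and 53 of 54 in embryos had no count in the WT library. All 14 and all 85 below −5 had none in the Lsh-/- library. This follows from the scale: a tested locus at 0 in 1 library has at least 10 counts set against the prior count alone, which places it past 5. Of all LINE loci above 5, 1209 of 1228 in fibroblasts and 765 of 771 in embryos had no WT count. The shares above 5 are thus largely shares of loci at 0 in the WT library. Placing a library without a count at the floor of 3 counts left 2 L2 loci above 5 in fibroblasts (the chromosome 9 locus and 1190007I07Rik), 1 in embryos (2310045N01Rik), and 0 below −5 in either tissue.

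**Figure D2:**
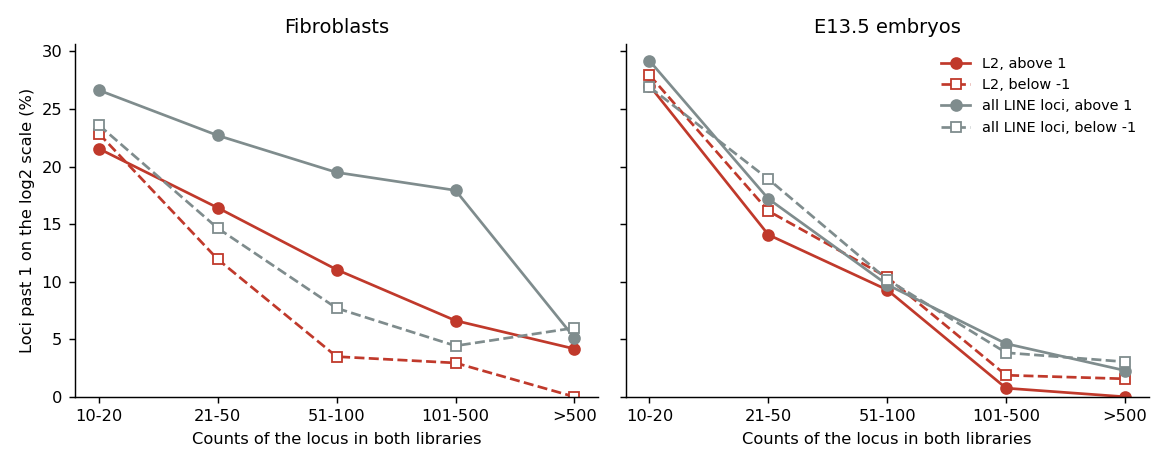
Share of loci above 1 (filled circles) and below −1 (open squares) on the log2 scale, for classes of loci by their summed counts in the pair, in fibroblasts and embryos. For L2 loci the shares drop from 21.6% and 22.9% at 10 to 20 counts to 4.17% and 0% above 500 counts in fibroblasts, and from 27.0% and 27.9% to 0% and 1.56% in embryos.

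The most abundant L2 loci in fibroblasts lay inside annotated genes, and their counts differed little between genotypes. An L2a in the 3′ UTR of Tubb5, a beta-tubulin (chr17:35971757-35971835), had 4206 WT and 3488 Lsh-/- counts in fibroblasts, a log2 fold change of −0.32 (95% counting interval −0.38 to −0.25). An L2a in the 3′ UTR of Prelid1, a mitochondrial lipid transfer protein (chr13:55426514-55426614), had 1597 and 1627. An intronic L2c of Srrm2, a splicing factor (chr17:23959810-23960561), had 1318 and 1171, or −0.22. The small RNA gene AC122821.1 overlapped this interval as well. An L2 overlapping a coding exon of Ddx17, an RNA helicase (chr15:79362064-79362179), had 785 and 836. The fifth, an L2a in the 3′ UTR of Glt25d1, a collagen galactosyltransferase (chr8:74148032-74148108), had 653 and 823, or 0.29. These 5 values all lay within 0.32 of 0 on the log2 scale.

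Among L2 loci above 1 in fibroblasts, 3 of the 4 with the largest counts lay in 3′ UTRs. The L2c of Cdkn1a, an inhibitor of cyclin-dependent kinases (chr17:29237482-29237662), had 158 WT and 549 Lsh-/- counts in fibroblasts, a log2 fold change of 1.75 (1.49 to 2.02). The L2a of Arsb, a lysosomal sulfatase (chr13:94711964-94712045), had 110 and 267, or 1.23 (0.91 to 1.57). The L2c of Pnkd (chr1:74399800-74400255) had 55 and 238, or 2.06 (1.64 to 2.52). In embryos the same 3 loci had log2 fold changes of 0.42, −0.27 and −0.23.

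The remaining locus was the intergenic L2b on chromosome 9 whose sequence is given above. It had 0 WT and 454 Lsh-/- counts in fibroblasts, at least 147-fold higher with WT at the floor of 3 counts, and 0 and 4 counts in WT and Lsh-/- embryos. Its interval on the side of higher coordinates had 0 and 55 counts, and that on the other side had none. The nearest protein-coding gene, Prr23a, was 63606 bp away. An IAPLTR1_Mm locus above 5 in the same tissue lay 6984 bp from it.

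Among L2 loci below −1 in fibroblasts, 3 of the 4 with the largest counts overlapped exons. The L2 overlapping the coding sequence of Cxcr7, an atypical chemokine receptor (chr1:92111378-92111437), had 303 WT and 90 Lsh-/- counts in fibroblasts, a log2 fold change of −1.80 (−2.15 to −1.45). The L2a in the 3′ UTR of Egln3, an oxygen-dependent prolyl hydroxylase (chr12:55279984-55280241), had 120 and 47, or −1.4. The L2 overlapping a coding exon of Adam12, a metalloprotease (chr7:141104439-141104552), had 117 and 48, or −1.33. The intronic L2b of Fosl1, an AP-1 transcription factor (chr19:5450487-5450582), had 94 and 35, or −1.47. The interval beside Cxcr7 on the side of lower coordinates had 121 and 31 counts, or −2.01. That beside Adam12 on the same side had 15 and 4, or −1.92, while that beside Fosl1 on the other side had 428 and 479, or 0.12. In embryos the Cxcr7, Egln3 and Adam12 loci had log2 fold changes of −0.02, −0.17 and 0.61, and the Fosl1 locus had 3 and 0 counts. With the total of all 6 tables as library size, Egln3, Adam12 and Fosl1 were at −0.72, −0.65 and −0.79 in fibroblasts and no longer below −1.

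Further from equality in fibroblasts stood loci with all or nearly all counts in 1 library. The intergenic L2 on chromosome 5 had 0 WT and 80 Lsh-/- counts in fibroblasts, at least 25.8-fold higher, and 0 in both embryo libraries. Tmem132d, its nearest protein-coding gene, was 32920 bp away, and the nearest LTR locus above 5 was 2027992 bp away. The intronic L2 of 1190007I07Rik (chr10:82084295-82084625) had 1 and 41 counts, a ratio of 39.7 with a counting interval of 2.75 to 10.65 on the log2 scale. In the opposite direction, the L2 overlapping a coding exon of Cdh3, which encodes P-cadherin (chr8:109067891-109068055), had 38 WT and 0 Lsh-/- counts in fibroblasts, at least 13.1-fold lower, whereas in embryos it had 177 and 164. The intronic L2 of Zfpm2, a GATA cofactor (chr15:40881698-40882365), had 18 and 0 counts and the intronic L2c of 2210012G02Rik (chr4:106837364-106837618) had 16 and 0. Neither direction was shared by the embryos at the loci with counts there: 1190007I07Rik had 31 and 29, and Zfpm2 had 10 and 12.

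**Figure D3:**
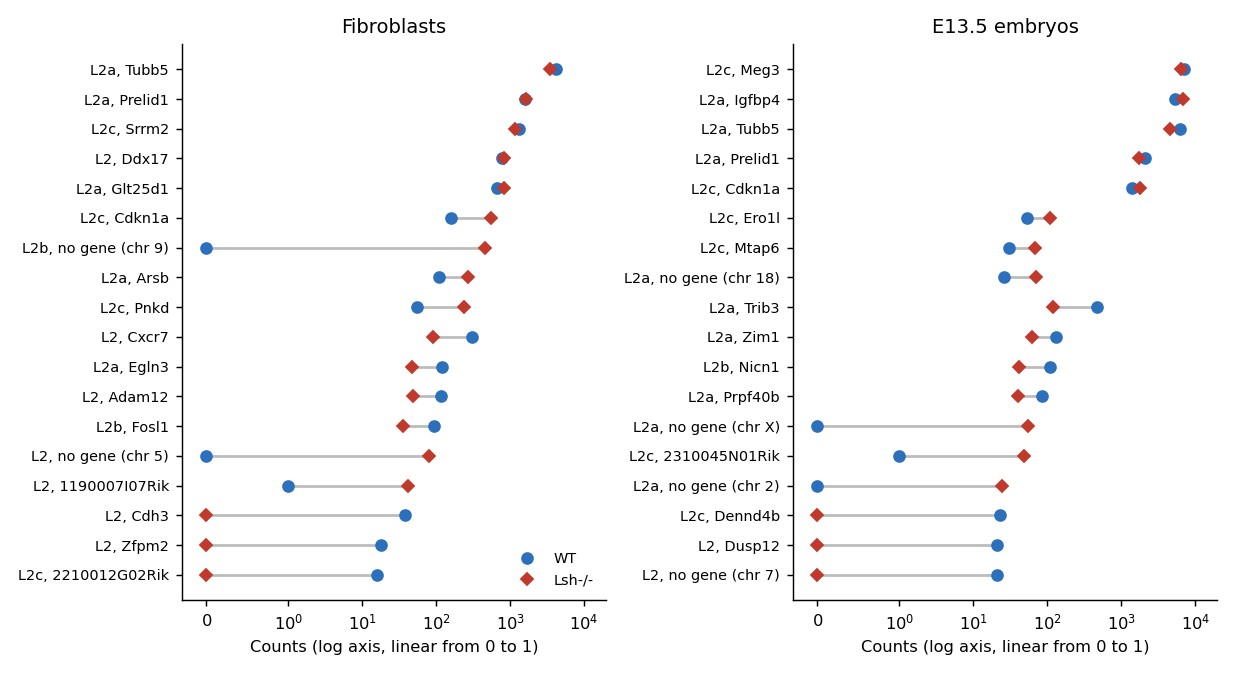
Raw counts of the named L2 loci in the WT (circles) and Lsh-/- (diamonds) library of each tissue, on a log axis that is linear between 0 and 1. Grey lines join the 2 libraries. The most abundant loci, such as Tubb5 with 4206 and 3488 counts in fibroblasts, lie close together, and loci past 5 have 0 or 1 count in 1 library.

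Exonic, intronic and intergenic L2 loci had medians near 0 in fibroblasts. The median log2 fold change was 0.20 (interval 0.12 to 0.30) for 410 exonic loci, −0.05 for 1212 intronic loci and 0.16 (−0.05 to 0.41) for 160 loci outside genes. The intronic median was 0.03 with at least 50 counts and 0.07 with the total of the same table as library size, so its sign depended on these choices. Outside genes 8 of 160 L2 loci (5.0%) were above 5, against 1001 of 2761 L1 loci (36.3%). In introns the shares were 0.74% for L2 and 2.05% for L1, and in exons 1.95% and 2.04%. The difference between L2 and L1 was thus widest outside genes, where 8.98% of tested L2 loci and 23.3% of tested L1 loci lay. Leaving L1Md loci out of the L1 loci gave 33.1% above 5 outside genes.

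In embryos the medians were −0.09 (interval −0.16 to −0.03) for 518 exonic L2 loci, −0.05 for 2356 intronic and 0.22 (0.05 to 0.41) for 274 outside genes. The last turned to −0.12 with at least 50 counts and to −0.50 with all listed loci. Above 5 were 10 of the 274 L2 loci outside genes (3.65%) and 332 of 3583 such L1 loci (9.27%). Within exons the 220 loci of 3′ UTRs had a median of −0.11 in embryos, and the 181 tested in fibroblasts had a median of 0.16. Loci on the strand of their gene and on the opposite strand had medians of 0.08 and −0.05 in fibroblasts and −0.08 and −0.05 in embryos.

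**Figure D4:**
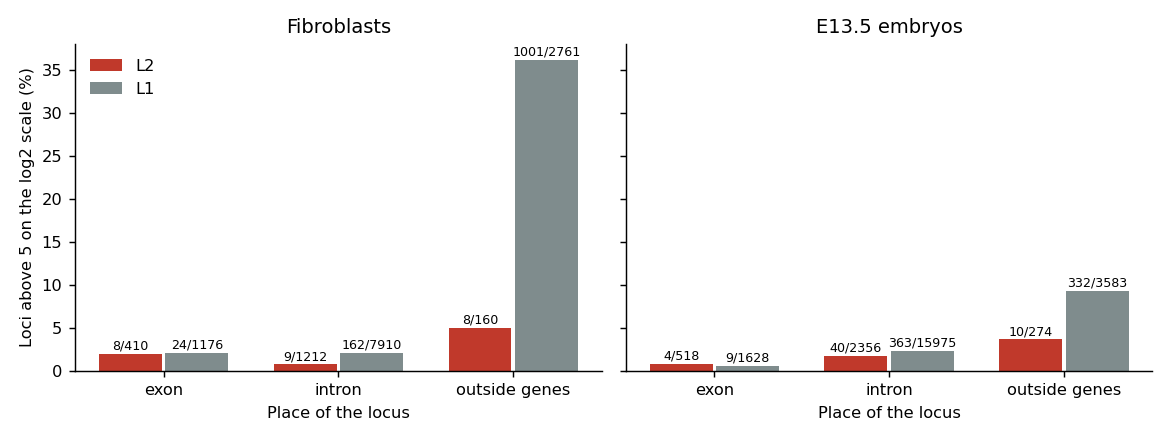
Share of tested loci above 5 on the log2 scale by place, for L2 and L1 loci in fibroblasts and embryos. The numbers on the bars are the loci above 5 and the loci tested. Outside genes the share in fibroblasts was 5.0% of L2 loci and 36.3% of L1 loci.

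The 25 L2 loci above 5 in fibroblasts were partly neighbours of LTR loci that were above 5 themselves. Within 20 kb of such an LTR locus lay 8 of the 25 (32.0%), 5 of 1185 loci within 1 of 0 (0.42%) and 0 of the 14 below −5. In embryos the counts were 1 of 54, an L2 outside genes on chromosome 8 with 0 and 14 counts, 6 of 1972 and 0 of 85. Over all tested L2 loci it was 18 of 1782 (1.01%) in fibroblasts and 9 of 3148 (0.29%) in embryos. The L2 and LTR loci above 5 were both picked on counts of the same libraries. Among the 8, named after their values were seen, were 3 L2 loci in an intron of Gm773 on chromosome X without a count in WT fibroblasts and with 17, 16 and 27 in the Lsh-/- library, 4498 to 5862 bp from an RLTR14 locus, and an L2c in an intron of C130060K24Rik with 0 and 21 counts, 892 bp from an IAPLTR1_Mm locus. The 3 loci of Gm773 lie side by side and are not separate observations. Among the other 17, also named after their values were seen, the L2 in the 3′ UTR of Scube3 (chr17:28309367-28309439) had 0 and 41 counts in fibroblasts and 103 and 95 in embryos. Whether transcription from the LTR contributed to the L2 counts was not tested.

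The subfamilies differed little from each other in either tissue. Median log2 fold changes in fibroblasts were 0.02 for 476 loci named L2, 0.06 for 652 L2a, 0.03 for 337 L2b and 0.10 for 317 L2c. In embryos they were 0.05 for 876 loci named L2, −0.10 for 1139 L2a, −0.04 for 591 L2b and −0.08 for 542 L2c. In each tissue the intervals of the 4 medians, taken over loci, overlapped one another. Loci are not replicates, so this overlap does not show that the subfamilies are equal, and no difference between them was tested. CpG content gave no graded order either. In fibroblasts 8 of 545 loci without a CpG (1.47%) and 3 of 206 with over 2 CpG per 100 bp (1.46%) were above 5, and in embryos 20 of 1032 (1.94%) and 6 of 328 (1.83%).

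The most abundant embryonic L2 loci lay in annotated exons. The Meg3 L2c, in a maternally expressed imprinted non-coding RNA, had 7073 WT and 6521 Lsh-/- counts in embryos, a log2 fold change of −0.06 (−0.11 to −0.01), and 3 and 9 counts in WT and Lsh-/- fibroblasts. An L2a in the 3′ UTR of Igfbp4, which binds insulin-like growth factors (chr11:98913218-98913270), had 5404 and 6887, or 0.40 (0.35 to 0.46). Tubb5 had 6157 and 4568, or −0.38, Prelid1 had 2085 and 1727, or −0.22, and Cdkn1a had 1386 and 1789, or 0.42. CPM values were divided by the width in kilobases to compare loci. On that scale the Meg3 locus was at 2615 in WT embryos and 1.86 in WT fibroblasts, and the Tubb5 locus was at 2622 and 3001.

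Among L2 loci above 1 in embryos, 3 of those with the largest counts were modest changes of low counts. The L2c in the 3′ UTR of Ero1l, an oxidase of the endoplasmic reticulum (chr14:45902872-45903116), had 53 WT and 110 Lsh-/- counts in embryos, a log2 fold change of 1.11 (0.62 to 1.61). The intronic L2c of Mtap6, a microtubule-associated protein (chr7:106472152-106472490), had 30 and 68, or 1.23, and an L2a outside genes on chromosome 18, 2102 bp from Mbd2, had 26 and 71, or 1.5. None of these 3 had a log2 fold change above 1 in fibroblasts, where their values were 0.19, −0.99 and −0.48. In embryos the interval beside Mtap6 on the side of higher coordinates had 38 and 68 counts, or 0.89. Those beside Ero1l had 212 and 293 on that side, or 0.52, and 12 and 3 on the other, or −1.90. The interval beside the chromosome 18 locus on the side of lower coordinates had 598 and 490, or −0.23.

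Below −1 in embryos, the largest count belonged to the L2a in the 3′ UTR of Trib3, a stress-induced pseudokinase (chr2:152163717-152163779), with 465 WT and 119 Lsh-/- counts in embryos, or −1.91 (−2.21 to −1.62). It had 52 and 60 in fibroblasts. The intronic L2a of Zim1, an imprinted zinc finger gene (chr7:6639846-6639986), had 131 and 62 counts, or −1.02, and none in fibroblasts. The L2b in the 3′ UTR of Nicn1 (chr9:108198738-108198832) had 107 and 42, or −1.29, and the intronic L2a of Prpf40b (chr15:99132956-99133133) had 84 and 40, or −1.01. The interval beside Zim1 on the side of lower coordinates had 2195 and 2045 counts, a log2 fold change of −0.05, and that beside Nicn1 on the other side had 1306 and 1189, or −0.08.

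The embryonic loci past 5 had at most 54 counts in the pair, and 51 of the 54 above 5 and 82 of the 85 below −5 had 20 or fewer. The intergenic L2a on chromosome X had 0 WT and 54 Lsh-/- counts in embryos, at least 18.7-fold higher, but 34 and 51 counts in WT and Lsh-/- fibroblasts. The L2c overlapping a coding exon of 2310045N01Rik (chr8:72669691-72669767) had 1 and 48, a ratio of 49.8 with a counting interval of 3.09 to 10.97 on the log2 scale. An L2a outside genes at chr2:119795734-119795859, 417 bp from Mga, had 0 and 24 counts, at least 8.31-fold higher. Below −5, the intronic L2c of Dennd4b (chr3:90082718-90082802) had 23 and 0 counts, at least 7.38-fold lower, while the intronic L2 of Dusp12 (chr1:172813408-172813475) and an L2 outside genes at chr7:53939464-53939702, 1776 bp from Saal1, each had 21 and 0, at least 6.74-fold lower. For Dennd4b the interval on the side of lower coordinates had 92 and 83 counts.

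Few L2 loci fell in the gene lists. In the fibroblast matrix list all 4 tested loci of the fibroblast pair were below −1, a count to set against 15.9% of all tested L2 loci. They were intronic, with 18 and 9 counts in Loxl1, 19 and 1 in Thy1, a surface glycoprotein of fibroblasts, 8 and 4 in Col12a1 and 7 and 3 in Cald1. Apart from Thy1 (−1.64 at the upper end), the counting intervals of these loci included 0. Of the 4, 2 stayed below −1 (Thy1 and Cald1) with a prior count of 1, with DESeq2 size factors or with the total of the same table, and 1 (Thy1) with the total of all 6 tables. In embryos 19 loci of this list were tested, with a median of 0.23. Above 1 were 5, in Col5a2, Prrx1, Fbn2 and Cald1 (the last with 2 loci), and below −1 were 4, in Loxl2, Fbn2, Pdgfrb and Mmp2, as seen after the fact, beside 18% and 19.3% of all tested L2 loci. The largest counts there were in Fbn2, with 58 and 104 at 1 locus and 23 and 26 at another, in Col12a1 with 39 and 30 and in Loxl2 with 39 and 10.

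The lists of other cell types held few tested loci. Of the neural list, 3 loci were tested in fibroblasts, in Nav2 (20 and 2 counts), Celf4 (3 and 15) and Ncam1 (5 and 5), and 2 in embryos, in Kif5c (9 and 6) and Slit2 (10 and 4). Of the muscle list, the intronic L2b of Tnnt2, cardiac troponin T (chr1:137741446-137741563), had 7 and 55 counts in fibroblasts, a log2 fold change of 2.91 (1.79 to 4.31), and 33 and 35 in embryos. The coding-exon L2 of Myh3, embryonic myosin heavy chain, had 400 and 285 in embryos, or −0.43, and none in fibroblasts. No locus of the liver and erythroid list reached 10 counts in a pair. The summed levels of L2 loci were 0.56 and 3.0 CPM for the muscle list in WT and Lsh-/- fibroblasts, and 15.1 and 11.5 in embryos. For the neural list they were 3.78 and 2.62 in fibroblasts and 2.39 and 2.45 in embryos, and for the liver and erythroid list 0 to 0.22 in any library. The part of cell composition in any L2 difference was not tested, and in bulk samples fewer cells of a type and less RNA per cell cannot be told apart.

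Imprinted genes held the largest embryonic L2 counts of the lists, mostly at 1 locus. Of their 8060 WT and 7488 Lsh-/- counts in embryos, the Meg3 locus shown above held 7073 and 6521. Of 11 loci tested in embryos, with a median of −0.15, 2 were above 1, in Copg2 and Kcnq1, and 3 below −1, in Sgce, Zim1 and another locus of Kcnq1, as seen after the fact. Over all tested L2 loci in embryos the shares were 18% and 19.3%. Peg3, a paternally expressed zinc finger gene, had 382 and 514 counts at an L2 in a non-coding exon, or 0.48, and 177 and 122 at an L2c in a coding exon, or −0.48. A second Meg3 locus had 145 and 113 counts. In fibroblasts only the Meg3 locus shown above was tested.

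Germline genes known to be silenced by DNA methylation held 4 listed L2 loci, all in Smc1b, and none reached 10 counts in either tissue. Of the interferon-stimulated list, only Eif2ak2, a sensor of double-stranded RNA, was tested, with 6 and 9 counts in fibroblasts and 7 and 5 in embryos. Of the DNA methylation and silencing list, 3 loci were tested in fibroblasts and none passed 1. The L2c in the 3′ UTR of Suv39h1, a histone methyltransferase (chrX:7638557-7638785), had 300 and 285 counts in fibroblasts and 242 and 231 in embryos. Mbd1 and Mbd2, which bind methylated DNA, had 31 and 26 and 6 and 10 counts in fibroblasts, and 66 and 53 and 14 and 16 in embryos, and Zbtb24 had 7 and 9 in embryos. The only Hox locus, in Hoxd3, had 12 and 8 counts in embryos.

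L2 loci of the same gene often lay on different sides of 0. In fibroblasts the 1622 tested loci inside genes lay in 1263 genes, and of the 68 genes with 3 or more tested loci 25 had them all on the same side of 0. In embryos it was 40 of 166 genes. Over all tested L2 loci, 914 of 1782 in fibroblasts and 1435 of 3148 in embryos had only 10 to 20 counts. The part of counting error in these differences of side was not tested. The genes with the most tested L2 loci are given here, as seen after the fact. In fibroblasts the 5 loci of Igbp1 ranged from 0.43 to 0.72 on the log2 scale, the 5 of Phldb2 from 0.36 to 1.4 and the 5 of Csf1 from −0.91 to 1.58. In embryos the 8 loci of Trim3 ranged from −6.31, at a locus without a count in the Lsh-/- library, to 1.36.

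Each L2 locus has 2 flanking intervals in the tables, called upstream and downstream by lower and higher coordinate, which the methods describe as 10 kb away and as wide as the repeat. In the tables, of 383 repeats with 20 or more counts lying 10 to 11 kb upstream, 100% had no more counts than the interval, beside 84.1% and 82.0% of those in the kilobase before and after. By these counts the intervals are taken here as 1 kb wide, which differs from the width described. In fibroblasts 7345 upstream and 7352 downstream intervals of L2 loci were tested, with medians of 0.07 and 0.08. Above 1 were 15.8% of the upstream intervals, beside 18.6% of those of all LINE loci, and below −1 were 14.3%, beside 13.6%. In embryos 10410 and 10475 intervals had medians of −0.05 and −0.03. Of the upstream ones 13.1% were above 1, beside 14.2%, and 14.7% below −1, beside 14.5%. The library sizes were set on intervals flanking LINE-1 loci, so medians near 0 follow in part from the scaling. With the total of all 6 tables as library size, the fibroblast medians were 0.75 upstream and 0.75 downstream.

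A downstream interval of an intronic L2a of Txndc11 (element at chr16:11133615-11133902) had 213270 WT and 10518 Lsh-/- counts in fibroblasts, and 7921 and 9131 in embryos. It alone made up 15.7% of the downstream L2 counts of WT fibroblasts. Without it the downstream level of L2 loci was 64757 CPM in WT and 67731 in Lsh-/- fibroblasts, where with it the levels were 76780 and 68305. The L2a element itself had 3 and 2 counts.

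In fibroblasts the interval beside an L2 locus tended to differ the same way as the locus. Of 177 L2 loci above 1 with a tested upstream interval, 50 (28.2%) had that interval above 1 and 11 (6.21%) below −1. Of 169 loci below −1, 40 (23.7%) had it below −1 and 11 (6.51%) above 1, and of 698 loci within 1 of 0 the shares were 7.88% above 1 and 9.31% below −1. The downstream intervals had a median of 0.34 beside the 174 loci above 1 and of −0.20 beside the 160 loci below −1. Across loci, Spearman's rho between the log2 fold changes of locus and interval was 0.30 upstream (n = 1044) and 0.31 downstream (n = 988). In embryos 40 of 376 loci above 1 (10.6%) had the upstream interval above 1 and 40 below −1, and rho was 0.05 (n = 2042) and 0.08 (n = 2054). Locus and interval share their libraries and often their gene, and intervals of neighbouring loci overlap, so these points are not independent.

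**Figure D5:**
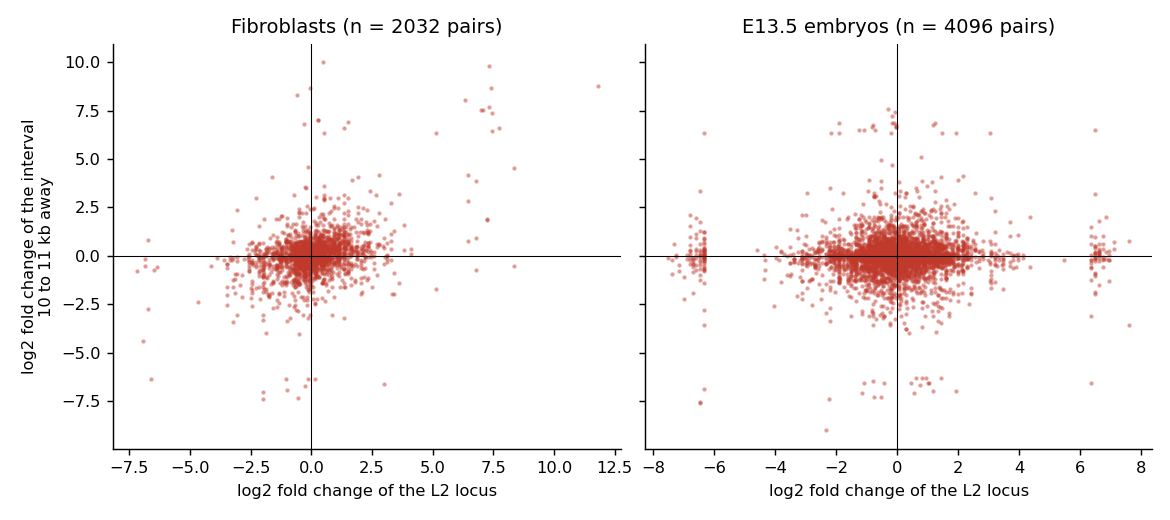
Log2 fold change of the flanking interval against that of the L2 locus, 1 point per locus and side, both with at least 10 counts, in fibroblasts and embryos. The fibroblast points lean along the diagonal (rho 0.30 and 0.31), and the embryo points scatter evenly about 0 (rho 0.05 and 0.08).

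L2 loci above 1 in 1 tissue were above 1 in the other at near the share of all tested loci. Those below −1 were shared somewhat more often than that share. Tested in both tissues were 1538 L2 loci, of which 814 lay within 1 of 0 in both. Above 1 in both were 31, which is 12.7% of the 245 above 1 in fibroblasts and 17.4% of the 178 above 1 in embryos. Below −1 in both were 41, or 19.2% of 213 and 18.7% of 219. Over all 1538 loci, 15.9% and 11.6% were above 1 in fibroblasts and embryos and 13.8% and 14.2% below −1. Of all LINE loci tested in both tissues, the shared loci were 20.7% and 25.6% of those above 1 in fibroblasts and embryos, where 17.4% and 14.1% of all were above 1, and 19.9% and 21.1% of those below −1, where 17.6% and 16.6% were. In opposite directions were 34 loci above 1 in fibroblasts and below −1 in embryos and 25 the other way. No locus was above 5 in both (0) or below −5 in both (0), and rho between the log2 fold changes of the tissues was −0.01.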

How the data were processed

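Paired-end, strand-specific RNA-seq libraries (dUTP method, HiSeq) were made by the authors, mapped to mm9 with TopHat 1.4.0 without mismatches, filtered for unique reads and joined to the repeatmasker annotation in Galaxy. The authors deposited raw counts per repeat locus and per flanking interval, without normalization, and used edgeR for their own analysis. Loci without a read are not listed and were given a count of 0. Whether a read pair counted as 1 or 2, and whether strand was used in counting, is not given in the sources used here. Unique mapping loses reads on near-identical copies, which affects L1Md more than L2. No mismatch was allowed, so reads that differ from the reference are lost.

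L2 loci, subfamilies and host gene lists were chosen with earlier results of these data known. All 24 count tables were read, starts count from 0 (98.0% of 859 IAPLTR loci over 4 kb on the plus strand then begin with TG, 0.70% otherwise), and coordinates are given from 1. Libraries were scaled with TMM (edgeR 4.0.16, R 4.3.3) over the intervals flanking LINE-1 loci, giving effective sizes of 19481559 and 20118423 for WT and Lsh-/- fibroblasts and 27051956 and 26054891 for the embryos. The 6 tables of a library held 19216257 to 33904311 counts. Tables were handled in Python 3.11.15 with pandas 2.3.3, NumPy 2.4.6, SciPy 1.17.1, pysam 0.24.0 and matplotlib 3.10.9, and places come from GENCODE vM1. Where a locus overlaps an exon of 1 gene and an intron of another, the exon was taken, and a small RNA gene only where there was no other.

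With 1 library per group no test was made. Counting intervals are exact Clopper-Pearson intervals of the Lsh-/- share of a locus's counts, at 95%. A locus at 0 was set to a floor of 3 counts for fold bounds. The named loci are, per tissue, the 5 with the largest scaled count, the 4 above 1 and 4 below −1 and the 3 above 5 and 3 below −5 with the largest count, and up to 4 per gene list. Of these and of the loci past a limit in the gene lists, 2 are not reported here. Scaling and fold changes were tested on simulated counts with counting error as the only noise, and with changes placed only at loci of higher counts. The simulation does not cover changes at loci with few counts. Alternatives were a prior count of 1, library sizes from the same table, from all 6 tables or from DESeq2 1.42.0, a minimum of 50 counts or none, no chromosomes X and Y, and no exonic loci. The DESeq2 size factors were 1 for both libraries of each tissue, so that setting compared unscaled counts. A floor of 3 counts for a library at 0 and leaving out loci within 20 kb of an LTR locus above 5 were added after the data had been seen.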

Additional observations from a re-analysis of the deposited data

Results flagged for a closer look

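Both loci here moved in opposite directions in the 2 tissues, each with a counting interval that left out 0 at the library sizes of the report, and the difference between tissues was not tested. The L2 overlapping a coding exon of Adam12 had a log2 fold change of −1.33 in fibroblasts (−1.85 to −0.84) and 0.61 in embryos (0.22 to 1.01). The intronic L2c of Mtap6 had −0.99 in fibroblasts (−2.04 to −0.01) and 1.23 in embryos (0.60 to 1.91). Its fibroblast interval included 0 with the other library sizes. Its upper end was 0.034 with DESeq2 size factors (unscaled counts), 0.10 with the total of the same table and 0.67 with that of all 6 tables.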

How the results depend on the processing

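No paired analysis was possible because each group has 1 library, and no replicate could be left out. Leaving out chromosomes X and Y, or loci within 20 kb of an LTR locus above 5 (chosen after the data were seen), moved no count of L2 loci by over 1.5 times. Without the loci near an LTR locus, though, the fibroblast count above 5 went from 25 to 17. With the total of all 6 tables as library size, the fibroblast medians were 0.73 for L2 loci and 0.75 for their upstream and 0.75 for their downstream intervals, with 686 loci above 1 and 142 below −1. With each table's own total they were 0.17, 0.71 and 0.85. With DESeq2 size factors, all 1 and so without scaling, the upstream and downstream medians were 0.12 and 0.12 in fibroblasts. In embryos they were −0.10 and −0.084, and the L2 median was −0.10. Without exonic loci the fibroblast median was −0.045.

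The counts past 5 rest on the prior count. With a prior of 1, above and below 5 in size were 3 and 1 loci in fibroblasts and 1 and 0 in embryos, and with a library at 0 put at 3 counts (chosen after the data were seen) 2 and 0, and 1 and 0. With at least 50 counts, fibroblasts had 29 loci above 1, 10 below −1, 2 above 5 and 0 below −5, and interval medians of 0.11 and 0.12, and embryos had 39, 47, 1 and 0, and a downstream median of −0.050. With all listed loci, fewer reads per locus by construction, fibroblasts had 2934 above 1, 4225 below −1, 268 above 5 and 338 below −5, and medians of −0.38 for loci and −0.046 and −0.045 for intervals. Embryos then had 3483, 4669, 800 and 963, and medians of −0.35, −0.12 and −0.082. No named L2 locus past 1 changed sign under the prior of 1 or the other library sizes, but 3 of the 13 in fibroblasts (Egln3, Adam12 and Fosl1) were no longer past 1 with the total of all 6 tables. In embryos Prpf40b was not with a prior of 1, nor Prpf40b and Zim1 with each table's own total. Tubb5, at −0.32 in fibroblasts, was at 0.36 with the total of all 6 tables. Depth limits the rest: the counting interval of 8 against 4 counts in Col12a1, about a 2-fold difference, includes 0, and the number of animals or cultures is unknown.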
